A study of Bos grunniens with 3 samples.

Results

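*IL1R2*, *IL20RA* and *IL1F10* are interleukin genes that were read in keratinocytes of white yak skin. They were chosen by name, as the rows of the deposited gene list whose symbol is one of these 3, and all 3 have a row among the 26924 genes of the list, of which 15765 carry a symbol. Their identifiers are ENSBGRG00000004837 (*IL1R2*), ENSBGRG00000014447 (*IL20RA*) and ENSBGRG00000015059 (*IL1F10*).

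*IL1R2* encodes a decoy receptor, which binds interleukin-1 but has no signalling domain, so that it takes ligand away from the signalling receptor encoded by *IL1R1*. *IL20RA* encodes a subunit of the receptors for the interleukin-20 family of cytokines, which is known to act on keratinocytes through JAK and STAT proteins, and which needs the partner subunit IL20RB or, for one of the ligands, IL10RB. *IL1F10* encodes a ligand of the interleukin-1 family that is described in skin and is thought to dampen inflammation. In the RefSeq annotation of the yak assembly Bosgru_T2T1.0, *IL1R2* lies between *IL1R1* and *MAP4K4*, *IL20RA* between *SLC35D3* and *IL22RA2*, and *IL1F10* between *IL1RN* and *IL36RN*, so 2 of the 3 genes sit beside other genes of the interleukin-1 family.

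The study made 10x Genomics single-cell libraries from scapular skin of healthy Tianzhu white yak (*Bos grunniens*) about 2 years old, 1 library from anagen (the growth phase of the hair cycle), 1 from catagen (regression) and 1 from telogen (rest). The skin was cut and digested, single follicles were pulled out and the cells were released with trypsin; the labels give the cell type as hair follicle, and the protocol text of the catagen sample names anagen skin. The study's methods describe anagen and catagen skin of 3 animals without saying which library came from which animal, and they do not describe the telogen library, which is known here from its labels alone. A cell barcode marks the droplet and a UMI (unique molecular identifier) marks 1 captured RNA molecule, so a level is given here as UMIs of a gene per 1000000 UMIs of the same cells (CPM), which is not divided by transcript length and is therefore compared between cells, not between genes.

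The libraries held 12000 anagen cells with 82862998 UMIs, 12124 catagen cells with 51647865 UMIs and 14573 telogen cells with 103511775 UMIs, and the median UMIs per cell were 5251.5, 3339.5 and 5561. Between 40 and 49 cell barcodes were shared by any pair of libraries, and the median correlation of cells with the same barcode was close to that of shifted pairs ( 0.556 against 0.561, 0.609 against 0.603 and 0.521 against 0.518). Each stage is a single library without replicates, and stages were therefore not tested against each other: each interval in brackets is a 95% interval that covers counting error only, and stage, animal, library and Cell Ranger version (4.0.0, 3.1.0 and 6.0.2 by the file headers) cannot be told apart. A lower level in a whole library can also reflect fewer cells of a kind or less RNA per cell, which the sums over all cells do not separate.

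Over all cells, each gene had its own course across the 3 libraries. The level of *IL1R2* was 249 CPM (246 to 253) in anagen, 248 CPM (244 to 252) in catagen and 223 CPM (220 to 226) in telogen, from 20629, 12782 and 23083 UMIs. The level of *IL20RA* was 17.7 CPM (16.8 to 18.6) in anagen, 51.1 CPM (49.1 to 53.0) in catagen and 13.9 CPM (13.2 to 14.6) in telogen, from 1464, 2631 and 1434 UMIs. The level of *IL1F10* was 29.1 CPM (27.9 to 30.2) in anagen, 18.2 CPM (17 to 19.4) in catagen and 17.9 CPM (17.1 to 18.7) in telogen, from 2407, 937 and 1851 UMIs. The decoy receptor was thus nearly level, the receptor subunit was high in catagen alone, and the ligand was high in anagen alone.

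**Figure D1:**
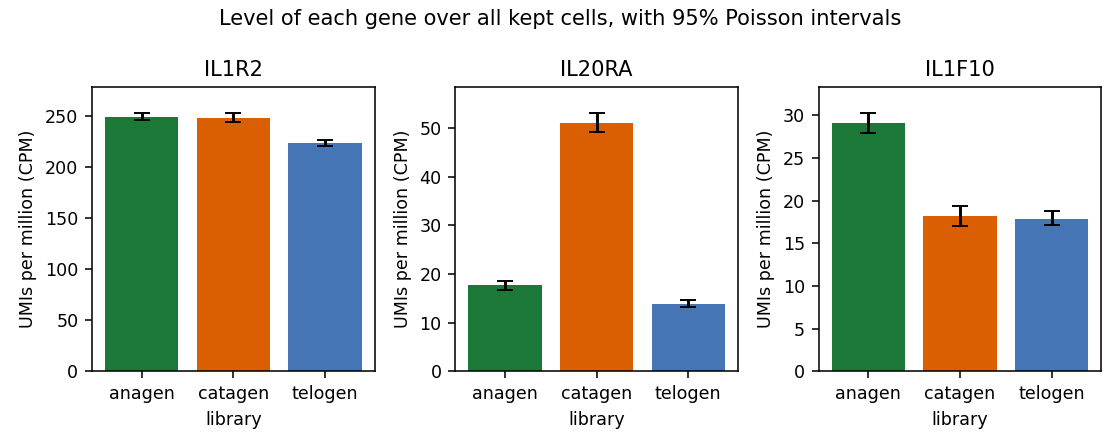
Level of each gene in CPM over all kept cells of the anagen, catagen and telogen libraries. Bars give the level of 1 library each and whiskers the 95% Poisson interval of the count. *IL1R2* stays between 223 and 249 CPM, *IL20RA* reaches 51.1 CPM in catagen against 17.7 and 13.9 CPM, and *IL1F10* is at 29.1 CPM in anagen against 18.2 and 17.9 CPM.

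As ratios, *IL20RA* was 2.89-fold higher in catagen than in anagen (log2 ratio 1.53, 1.44 to 1.62) and lower in telogen than in catagen by a log2 ratio of -1.88 (-1.97 to -1.79). It was the only one of the 3 genes past 2-fold in either step. Of the 6054 genes with at least 10 CPM in catagen or anagen, 4.41% were at least 2-fold higher in catagen and 3.47% at least 2-fold lower, and of the 5971 genes with that level in telogen or catagen 4.1% were at least 2-fold higher in telogen and 12% lower. From anagen to telogen none of the 3 was past 2-fold in summed CPM, beside 3% of 5733 genes that were higher and 7.83% that were lower: the log2 ratio was -0.16 (-0.19 to -0.13) for *IL1R2*, -0.35 (-0.46 to -0.24) for *IL20RA* and -0.70 (-0.79 to -0.61) for *IL1F10*. As the mean of each cell's CPM, *IL1F10* was past 2-fold lower in telogen than in anagen (log2 ratio -1.02).

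The *IL1R2* and *IL1F10* ratios between neighbouring stages were smaller. The catagen over anagen log2 ratio of *IL1R2* was -0.01 (-0.04 to 0.03), and its telogen over catagen log2 ratio was -0.15 (-0.18 to -0.12). *IL1F10* had a catagen over anagen log2 ratio of -0.68 (-0.79 to -0.57) and a telogen over catagen log2 ratio of -0.02 (-0.14 to 0.09), an interval that holds 0. Scaling the libraries by median-of-ratios size factors in place of CPM shifts every catagen over anagen log2 ratio by -0.25 and every telogen over catagen log2 ratio by 0.50. It turns the calls over all genes from 267 higher and 210 lower to 130 and 477 for catagen over anagen, from 245 and 717 to 903 and 187 for telogen over catagen, and from 172 and 449 to 305 and 258 for telogen over anagen. Under that scaling the 2 telogen ratios of *IL1R2* change sign (0.35 over catagen and 0.09 over anagen), so no direction is given for its telogen level, while the catagen peak of *IL20RA* and the anagen peak of *IL1F10* keep their direction.

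The genes also differed in how their UMIs were spread over cells. *IL1R2* had a UMI in 37.1% of anagen, 30.2% of catagen and 29.2% of telogen cells, with up to 73 UMIs in a cell. *IL20RA* was sparse: it had a UMI in 9.82%, 15.5% and 7.87% of cells, and of those cells 83.4%, 73.5% and 81.2% had exactly 1. *IL1F10* had a UMI in 4.48%, 1.33% and 1.37% of cells, yet single cells held up to 271, 93 and 325 of them, and the 1% of cells richest in *IL1F10* held 81.6%, 95.7% and 97.1% of its UMIs.

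Because depth differs between the libraries, each cell with at least 1500 UMIs was also thinned at random to 1500, a step that 0 cells of anagen, 2263 of catagen and 2932 of telogen were too shallow for. After thinning, 21.2% of anagen, 22.7% of catagen and 18.5% of telogen cells had an *IL1R2* UMI. For *IL20RA* the thinned shares were 2.72%, 7.40% and 1.92%, and for *IL1F10* they were 1.97%, 0.725% and 0.519%. The order of the libraries for *IL20RA* and *IL1F10* in the thinned shares was that of the CPM.

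To place the genes in the skin, the 3 libraries were integrated and clustered without the 3 genes or any other listed interleukin gene among the variable genes, and clusters were named from marker genes, with "-like" for a match. Of 25 clusters 14 were named, and the unnamed ones held 33.5% of anagen, 44.2% of catagen and 50.5% of telogen cells. Cluster 7 was basal epidermis-like, with all 8 markers of that layer raised; its leading genes by fold over the other cells were *CCL27* (a skin chemokine), *IL1R2* itself, *IGFBP3*, *IGFBP6* and *SCUBE2*. Cluster 11 was hair cortex and matrix-like, with all 5 markers raised, led by *KRT85* (a hair keratin), *IL1F10* itself, *KRT35*, *HEPHL1* and *LY6G6D*. Levels by cluster are given for sums of at least 50 cells, of which there were 61.

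*IL1R2* was highest in the basal epidermis-like cells of every library. In cluster 7 its level was 1815 CPM (1775 to 1855) in 711 anagen cells, 1483 CPM (1442 to 1524) in 897 catagen cells and 1957 CPM (1918 to 1997) in 840 telogen cells, where the medians over the other clusters were 73.1, 52.3 and 60.2 CPM. That 1 cluster held 38.8%, 40.2% and 40.7% of all *IL1R2* UMIs. An *IL1R2* UMI was seen in 97.3%, 91.8% and 88.1% of its cells, and in 84.7%, 81.7% and 76.5% after thinning. With each library clustered alone, 2477 catagen cells fell into basal epidermis-like clusters and their level was 783 CPM, with 1454 CPM in the highest of these clusters.

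The inner root sheath-like cluster 13, an inner layer of the follicle named from *KRT71*, *KRT25* and other keratins, served as a low reference. It was used because its levels of the receptors are low. There the thinned share was 9.98% in anagen, 1.89% in catagen and 2.50% in telogen, with unthinned median depths of 4795, 6796 and 12430.5 UMIs against 5711, 3740 and 5755.5 in cluster 7. The unthinned shares of cluster 13 were 22%, 5.10% and 7.43%. The share in cluster 7 was above that of cluster 13 in each library, and the share in cluster 13 was highest in anagen. Because cluster 13 was used as a low cluster, this gap cannot measure free RNA, which was not measured. Single cells of cluster 13 held up to 37, 9 and 14 *IL1R2* UMIs.

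Levels were lower in the suprabasal epidermis-like clusters 1 and 9. Cluster 7 exceeded suprabasal epidermis-like cluster 1 (led by *KRT1* and *KRT10*) by 7.13-fold (6.82 to 7.47) in anagen, 6.38-fold (6.04 to 6.76) in catagen and 10.6-fold (10.1 to 11.1) in telogen. It exceeded suprabasal epidermis-like cluster 9 (led by *KRT77*, *S100A7* and *KRT2*) by 28.6-fold, 40.0-fold and 63.8-fold. In all 3 libraries the order was therefore cluster 7, then cluster 1, then cluster 9. Granular layer-like cluster 15 was at 61.7, 24.8 and 34.1 CPM. It had 5 of 7 granular layer markers raised, but also all 4 upper follicle markers with a row. The other granular layer-like cluster, 21, was at 188, 639 and 213 CPM in 42, 39 and 45 cells, under the limit of 50 cells. In catagen and telogen that was above cluster 1, which was at 232 and 185 CPM.

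Clusters 17, 4 and 3, among those next to cluster 7 in the order of *IL1R2*, also carried basal markers. Cluster 17, S phase-like and led by *MCM3* and *MCM5*, was at 645 CPM in anagen, 554 CPM in catagen and 354 CPM in telogen. Unnamed cluster 4 (led by *FST* and *EMP3*), with 5 of the 8 basal markers raised, was at 484, 438 and 387 CPM, and unnamed cluster 3 (led by *ANGPTL2* and *MAN1A1*), with 6 of 8 raised, was at 450, 487 and 333 CPM. Clusters 4 and 3 did not differ beyond counting error in anagen (log2 ratio 0.11, -0.00 to 0.22), nor did clusters 17 and 3 in catagen (0.19, -0.01 to 0.38) or in telogen (0.09, -0.02 to 0.19). Of the neighbouring pairs in the order of *IL1R2*, 7 of 19 in anagen, 6 of 20 in catagen and 9 of 19 in telogen were set apart by their counts. Immune-like cluster 23, under the limit of 50 cells, was at 101, 475 and 402 CPM in 18, 16 and 49 cells. In catagen and telogen that was above cluster 4, with wide intervals (294 to 726 and 304 to 522).

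The exception to the lead of cluster 7 was sebaceous-like cluster 19, led by *ELOVL3* and other lipid enzymes. Its *IL1R2* level was 407 CPM in 227 anagen cells and 1412 CPM (1280 to 1554) in 55 catagen cells, while the 44 telogen cells were at 228 CPM. In catagen, clusters 7 and 19 did not differ beyond counting error (log2 ratio 0.07, -0.07 to 0.22). The catagen cells of cluster 19 also differed in markers: *ELOVL3* was at 750.0 CPM there against 5649 in anagen and 8169 in telogen, the summed level of the 6 sebaceous markers with a row was 1419 against 6590 and 9958 CPM, with 2, 1 and 1 of them at 0, and basal *KRT15* was at 858 against 130.0 and 79.6 CPM. The part of that shift in the catagen value was not tested.

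**Figure D2:**
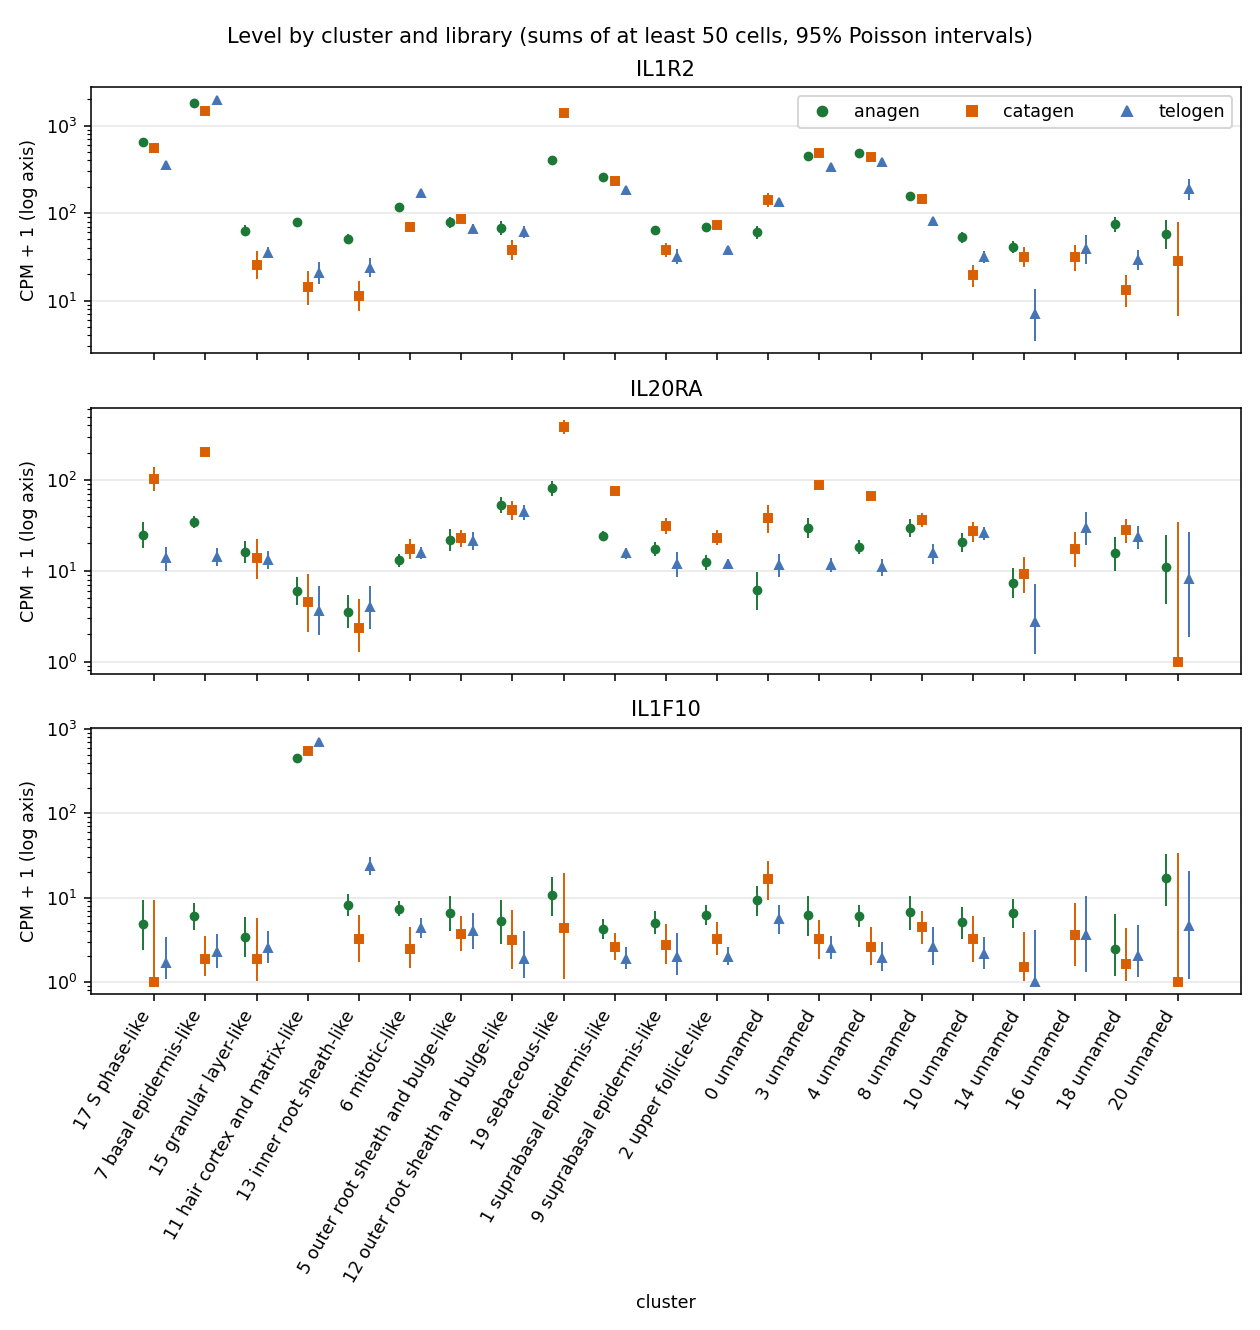
Level of the 3 genes in each cluster and library as CPM + 1 on a log axis, for sums of at least 50 cells. Points are single libraries (circle anagen, square catagen, triangle telogen) and whiskers the 95% Poisson interval; named clusters stand on the left and unnamed ones on the right. *IL1R2* tops out in cluster 7 at 1483 to 1957 CPM, and *IL1F10* is at or below 22.9 CPM outside cluster 11. The catagen points of *IL20RA* stand above the others in epidermal clusters 7, 1 and 9 but not in granular layer-like cluster 15.

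Within cluster 7 the CPM of *IL1R2* was not past 2-fold between any 2 libraries. This depends on the clustering: with each library clustered alone, basal epidermis-like cells were at 1237, 783 and 1923 CPM, from 1312, 2477 and 822 cells. The log2 ratio of *IL1R2* in cluster 7 was -0.29 (-0.34 to -0.24) for catagen over anagen, 0.40 for telogen over catagen and 0.11 (0.07 to 0.15) for telogen over anagen. Across 19 clusters with enough UMIs the catagen over anagen interval was above 0 in 2, below 0 in 12 and held 0 in 5, with a median log2 ratio of -0.29. If each catagen cluster is given the weight that it had in anagen, the catagen level becomes 226 CPM in place of 248 CPM.

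The other receptor-side genes of the interleukin-1 family were read at low levels. All 9 genes of a list of interleukin-1 family receptors and decoys have a row, and 2 of them, *IL1R1* and *IL1R2*, reached 10 CPM in a library; neither was past 2-fold between any 2 libraries. *IL1R1*, the signalling receptor, was at 34.1, 51.8 and 33.9 CPM over all cells and at 65.6, 94.4 and 71.3 CPM in cluster 7. *IL1RAP*, the co-receptor it needs, was at 6.13, 5.90 and 3.53 CPM over all cells and at 14.3, 9.24 and 5.83 CPM in cluster 7. *IL18BP*, a soluble decoy for interleukin-18, peaked at 72.1 CPM in catagen cluster 20, an unnamed cluster with mesenchymal and endothelial markers. That sum had 50 cells and 110930 UMIs of all genes, so the peak rests on few UMIs.

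*IL20RA* was the gene with a catagen level apart from the other libraries, in several epidermal clusters and in some others. In cluster 7 its level was 33.6 CPM (28.4 to 39.5) in anagen, 202 CPM (187 to 217) in catagen and 13.3 CPM (10.3 to 17) in telogen. The catagen level was 6.0-fold (5.02 to 7.21) the anagen level and 15.1-fold the telogen level (telogen over catagen log2 ratio -3.92, -4.31 to -3.55). Telogen over anagen in the same cluster had a log2 ratio of -1.33 (-1.78 to -0.90). With each library clustered alone the catagen level of the basal epidermis-like cells was 120.0 CPM.

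Among all genes with at least 10 CPM in cluster 7 in either library, 5.55% of 5603 were at least 2-fold higher in catagen than in anagen, 9.95% of 5447 at least 2-fold lower in telogen than in catagen and 13.4% of 5470 at least 2-fold lower in telogen than in anagen. After thinning, 5.20% of anagen, 25.6% of catagen and 1.65% of telogen cells in cluster 7 had an *IL20RA* UMI. Unthinned, the shares were 17.4%, 48.8% and 6.43%. In the inner root sheath-like cluster 13 the thinned shares were 0.924%, 0.472% and 0.833% and the unthinned ones 2.40%, 1.18% and 4.73%. The unthinned shares of the clusters are at unequal depths, given above. In CPM cluster 7 was 13.2-fold (7.48 to 25.4) above cluster 13 in anagen, 149-fold (50.9 to 726) in catagen and 4.52-fold (2.16 to 10.9) in telogen. Cluster 13 was picked for its low levels, so a high fold was set by that choice. Its levels rest on 13, 3 and 8 *IL20RA* UMIs.

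The higher catagen level was shared by several clusters and was not seen in others. In suprabasal epidermis-like cluster 1 *IL20RA* was at 23.3, 75.0 and 14.6 CPM, a catagen over anagen ratio of 3.22-fold (2.75 to 3.79). In S phase-like cluster 17 it was at 24.1, 103 and 12.7 CPM. In cluster 3 it was at 28.8, 86.5 and 10.5 CPM and in cluster 4 at 17.5, 66.0 and 9.92 CPM. Granular layer-like cluster 15, which also had the upper follicle markers raised, had no higher catagen level, at 15.3, 12.8 and 12.2 CPM. Outside the epidermal clusters, the catagen over anagen ratio was 4.83-fold (3.68 to 6.34) in sebaceous-like cluster 19, 1.96-fold (1.45 to 2.65) in upper follicle-like cluster 2 and 1.82-fold (1.05 to 3.25) in unnamed cluster 18, led by *KRT75*. The highest ratio, a log2 of 2.85 (1.88 to 3.91), was in unnamed cluster 0, from 31 catagen and 13 anagen UMIs in cells with median depths of 749.5 and 3926.5 UMIs. By contrast, in outer root sheath and bulge-like cluster 12 (with *CLDN10*, *TAGLN* and *BGN* among its 5 leading genes and the stem cell marker *LGR5* among its 10) it was at 52.0, 45.5 and 43.0 CPM, and in the other such cluster, 5 (led by *C3* and *FAM13A*), at 21, 22 and 20.4 CPM. The name of cluster 12 rests on 4 of 7 markers raised. Raised there too were 4 basal epidermis, 5 S phase and 2 dermal sheath and pericyte markers.

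For cluster 12 the catagen over anagen log2 ratio was -0.19 (-0.67 to 0.27) and for cluster 5 it was 0.06 (-0.47 to 0.61), intervals that do not reach the 2.58 of cluster 7. Over 18 clusters with enough UMIs, the catagen over anagen interval of *IL20RA* lay above 0 in 10, held 0 in 8 and lay below 0 in 0, with 7 at least 2-fold higher. Over 17 clusters the telogen over catagen interval lay below 0 in 9, held 0 in 8 and lay above 0 in 0, and all 9 were at least 2-fold lower. These clusters share their libraries and are no replicates of a stage.

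**Figure D3:**
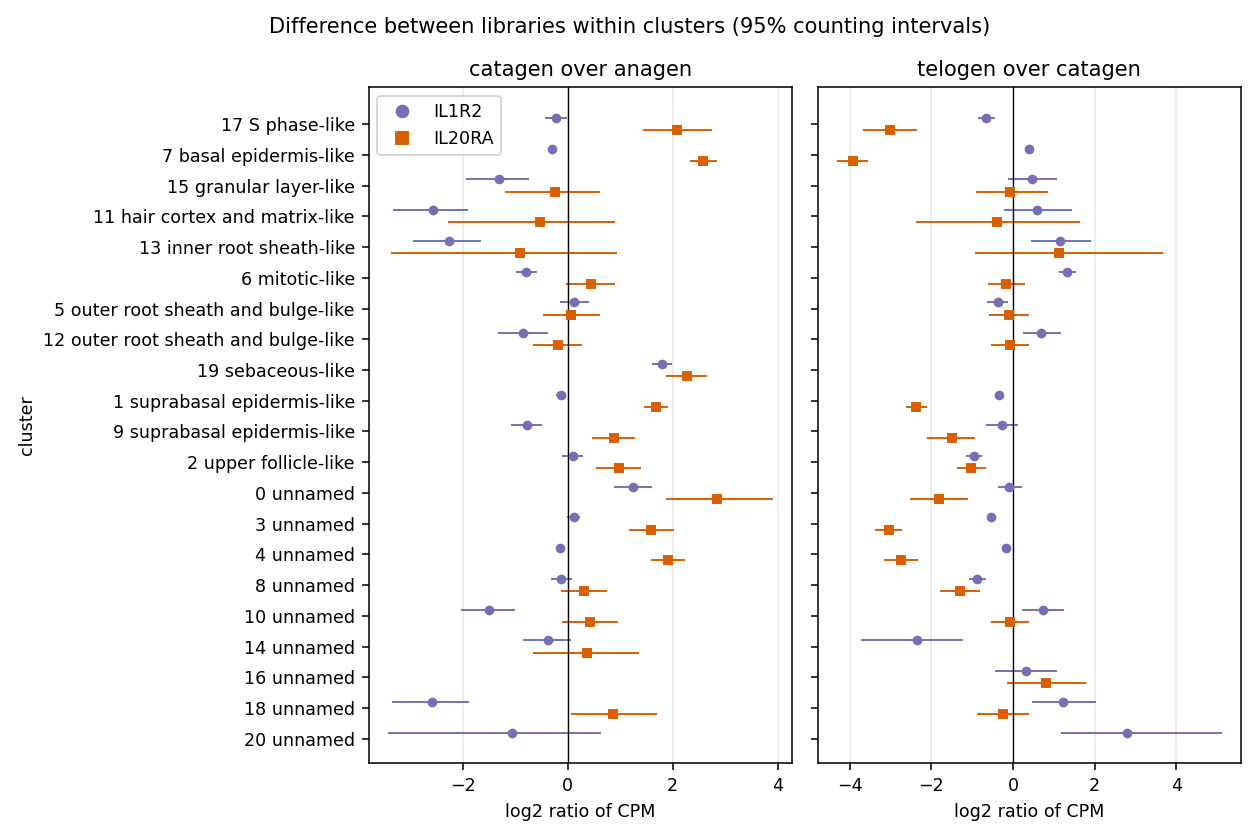
Log2 ratio of CPM between libraries within each cluster, catagen over anagen on the left and telogen over catagen on the right, for *IL1R2* (circles) and *IL20RA* (squares). Whiskers are 95% counting intervals, and clusters with under 3 UMIs in either library or under 50 cells are left out. *IL20RA* stands at 2.58 and -3.92 in cluster 7 and near 0 in the outer root sheath and bulge-like clusters 5 and 12, where *IL1R2* in cluster 7 is at -0.29 and 0.40.

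The *IL20RA* levels were also weighted to a fixed mix of clusters. With the catagen levels weighted by the anagen share of UMIs in each cluster, the level is 48.6 CPM, against 51.1 CPM as measured and 17.7 CPM in anagen. With telogen levels weighted by catagen shares it is 14.3 CPM. Cluster 7 held 10.1% of anagen, 26.5% of catagen and 4.46% of telogen *IL20RA* UMIs.

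The order of *IL20RA* over clusters changed with stage. In anagen the highest cluster was sebaceous-like 19 at 79.8 CPM (65.4 to 96.3), then cluster 12 at 52.0 CPM and cluster 7 at 33.6 CPM, and cluster 7 was below cluster 12 (log2 ratio -0.63, -1.01 to -0.25). In catagen it was cluster 19 at 385 CPM (318 to 463) and then cluster 7, which was now 4.43-fold (3.43 to 5.80) above cluster 12. In telogen, where cluster 19 had under 50 cells and was left out of the order, cluster 12 led at 43.0 CPM. Cluster 16 was next at 28.8 CPM and not set apart from it by the counts (log2 ratio 0.58, -0.10 to 1.31). This order depends on the clustering: with each library clustered alone the highest cluster was an unnamed one at 188 CPM in anagen and at 222 CPM in catagen, and with all variable genes kept it was an unnamed one at 29.7 CPM in telogen.

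Few neighbours in this order differ beyond counting error: 2 of 19 pairs in anagen, 3 of 20 in catagen and 1 of 19 in telogen. The 44 telogen cells of cluster 19, too few for that order, were at 78.1 CPM (58.5 to 102). In cluster 19 the catagen over anagen log2 ratio was 2.27 (1.88 to 2.66), beside 20.6% of 6399 genes that were at least 2-fold higher there, which is a larger share than in cluster 7, and the marker shift given above applies to the same 55 cells.

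Among other markers of cluster 7, *CCL27* was set apart in catagen and the basal keratin and adhesion genes less so. *CCL27* was at 1314 CPM in anagen, 247 CPM in catagen and 1123 CPM in telogen, while *KRT14* was at 27236, 26339 and 39202 CPM, *KRT5* at 1908, 2498 and 2813 CPM and *COL17A1* at 919, 802 and 723 CPM. The 8 basal markers summed to 33905, 33522 and 46104 CPM with 0 of the 8 at 0. The 5 immune markers with a row summed to 57.9, 284 and 59.2 CPM, with 4 of the 5 at 0 in each library, and the 4 endothelial markers summed to 0.454, 0 and 0.417 CPM. The part of these shifts in the *IL20RA* difference was not tested.

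The 2 receptors were not exclusive within cells. Among thinned cells of catagen cluster 7, 26.4% (23.1 to 29.9) of those with an *IL1R2* UMI also had an *IL20RA* UMI, against 22% (15.7 to 29.5) of those without. In anagen the shares were 5.32% and 4.59%, and in telogen 1.66% and 1.62%. The intervals overlap in each library.

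Of the partners of *IL20RA*, *IL10RB* was sparse and *IL20RB* could not be read. Other receptors of the family are given beside them, although they are under the naming limits. Of 6 genes on a list of interleukin-20 family receptors, 5 have a row; *IL20RB* has none, so the partner subunit could not be read. *IL10RB* was at 2.87, 3.14 and 2.69 CPM, *IL22RA1* at 0.29, 0.91 and 0.73 CPM, and *IL22RA2*, the neighbouring gene and a decoy for interleukin-22, had 0 UMIs in each library. *IL20RA* was the 1 gene of this list with at least 10 CPM, and so the 1 gene counted as past 2-fold.

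Ligands of the family had few UMIs. All 6 genes on the list of interleukin-20 family ligands have a row, and none reached 10 CPM in a library. *IL20* had 135 UMIs in anagen, 15 in catagen and 18 in telogen, and was highest in anagen cluster 7 at 6.36 CPM, *IL24* had 3, 0 and 0 UMIs, *IL26*, whose receptor pairs IL20RA with IL10RB, had 0, 0 and 1, and *IL19* had 0 in each. *IL22*, which signals through IL22RA1 and IL10RB, also had 0 in each. Signalling genes were present: all 7 on the list have a row and 5 reached 10 CPM, with *JAK1* at 149, 213 and 123 CPM, *STAT3* at 28.5, 26.0 and 32.8 CPM and *JAK2* at 35.7, 38.4 and 24.4 CPM. Of these 5, only the feedback inhibitor *SOCS3* (15.2, 24.3 and 4.57 CPM) was past 2-fold, lower in telogen than in catagen and than in anagen.

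Most *IL1F10* UMIs were read in the hair cortex and matrix-like cells. Cluster 11 was at 453 CPM (434 to 474) in 562 anagen cells, 553 CPM (515 to 593) in 239 catagen cells and 712 CPM (678 to 748) in 174 telogen cells. It held 82.6%, 84.6% and 87.5% of all *IL1F10* UMIs. By cells its share was smaller. Of the cells with an *IL1F10* UMI, 176 of 537 in anagen, 52 of 161 in catagen and 58 of 198 in telogen were in cluster 11. At the coarser resolution of 0.4, where the cortex-like cluster takes in more cells, the levels were 264, 233 and 487 CPM. Every other cluster of at least 50 cells was at or below 16.2 CPM in anagen, 15.5 CPM in catagen and 22.9 CPM in telogen, with medians of 5.14, 1.93 and 1.25 CPM.

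Below cluster 11 the order carries little information. Only 1 of 19, 2 of 20 and 2 of 19 neighbouring pairs were set apart by their counts in anagen, catagen and telogen. The next cluster in telogen, inner root sheath-like 13, had 62 UMIs that came from 3 of its 148 cells. After thinning, 20.6% of anagen, 16.3% of catagen and 22% of telogen cells of cluster 11 had an *IL1F10* UMI (31.3%, 21.8% and 33.3% unthinned, at median depths of 5513.5, 5121 and 10219 UMIs), against 0.703%, 0.244% and 0.127% in the basal epidermis-like cluster 7. The unthinned shares of cluster 7 were 2.67%, 0.334% and 0.714%. Cluster 21, granular layer-like, had 41 UMIs (106 CPM) in its 39 catagen cells, which is under the limit of 50 cells.

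Within the cortex-like cells, the order of the libraries differed from that over all cells. Within cluster 11 the log2 ratio of *IL1F10* was 0.29 (0.17 to 0.41) for catagen over anagen, 0.37 (0.24 to 0.49) for telogen over catagen and 0.65 (0.56 to 0.75) for telogen over anagen. Over all cells the same ratios were -0.68, -0.02 and -0.70. The *IL1F10* intervals, here and over all cells, count UMIs as independent and are too narrow where few cells hold many. The richest cells of cluster 11 held 325 and 224 of its 1619 UMIs in telogen, and 271 and 227 of 1987 in anagen. The order of the libraries within cluster 11 thus rests on few cells. It also depends on the clustering. At resolution 0.4 the cortex-like cells were lower in catagen (233 CPM) than in anagen (264 CPM), with telogen still highest (487 CPM). Cluster 11 had 562 cells in anagen, 239 in catagen and 174 in telogen, and with each cluster given its anagen weight the *IL1F10* level becomes 31.7 CPM for catagen and 40.6 CPM for telogen, against 29.1 CPM in anagen. With the anagen levels given the catagen weights it becomes 17.3 CPM, close to the 18.2 CPM measured in catagen. If the whole-library median-of-ratios shift of -0.25 is applied to cluster 11, its catagen over anagen ratio comes close to 0. The telogen ratios stay above 0 under the whole-library shifts. No size factors were computed within cluster 11, so its ratios under such scaling are not known.

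Inside cluster 11 the gene was uneven. Cells with at least 10 *IL1F10* UMIs, a limit chosen after the values had been seen, numbered 41 in anagen, 24 in catagen and 30 in telogen, of 42, 25 and 32 such cells in the libraries. They held 82.8%, 90.5% and 93.6% of the cluster's *IL1F10* UMIs, while 386, 187 and 116 cells of the cluster had 0. Around the limit, 5, 0 and 4 cells had 8 or 9 UMIs, and 6, 2 and 0 had 10 or 11. In anagen the values ran across the limit without a gap, so the limit does not mark a separate group there. The rich cells were also deeper, with median totals of 14324, 11849 and 15523 UMIs against 5482, 4135 and 8828.5 in the cells at 0.

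**Figure D4:**
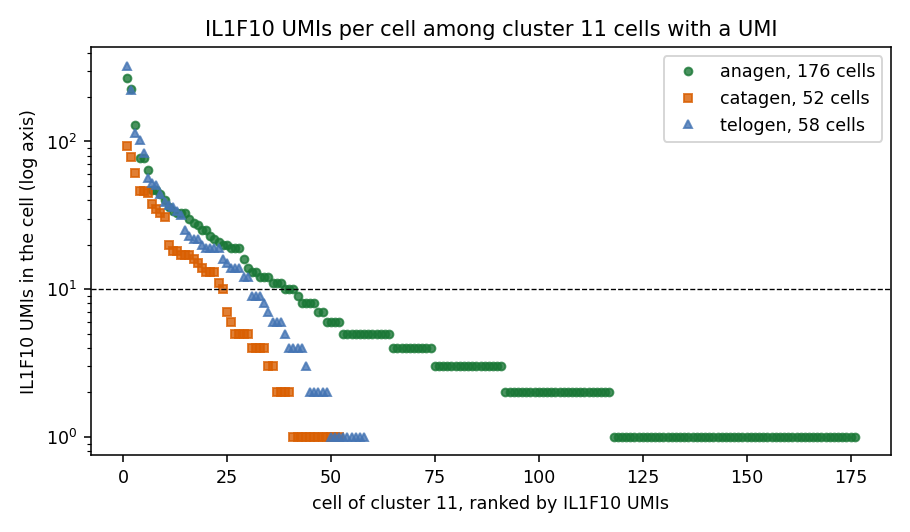
*IL1F10* UMIs in each cell of cluster 11 that had at least 1, ranked from the richest cell, on a log axis. Points are cells of the anagen (176), catagen (52) and telogen (58) libraries and the dashed line marks 10 UMIs. The richest cells hold 271, 93 and 325 UMIs, and 41, 24 and 30 cells are at or above the line.

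The rich cells differed from the cells at 0 in many genes, of which a few are given. As CPM with 10 added, compared with cells of the same cluster at 0, they were higher in *SPINK6*, a protease inhibitor (67.6-fold in anagen, 65.9-fold in catagen and 101-fold in telogen), in *LY6G6D* (19.2-fold, 40.1-fold and 23.5-fold) and in the hair keratin-associated protein gene *KAP11.1* (14.1-fold, 17-fold and 45.5-fold). *KRT85* was 3.89-fold, 5.02-fold and 5.21-fold higher, while *KRT35* differed little (1.04-fold, 1.07-fold and 1.16-fold). The hair cuticle genes *KRT82* (4.06-fold, 17.1-fold and 8.67-fold), *KRT32* (1.40-fold, 12.3-fold and 2.90-fold) and *S100A3* (5.94-fold, 26.8-fold and 6.66-fold) were higher, as was *KRT36* (4.19-fold, 5.20-fold and 18.2-fold). The anagen value of *KRT32* rests on few UMIs, at 5.02 CPM in the rich cells and 0.75 CPM in the cells at 0. Lower in the rich cells were the mitosis gene *CENPF* (7.64-fold, 10.5-fold and 7.36-fold), *DPP4* (7.65-fold, 7.71-fold and 8.48-fold) and the metallothionein gene *MT2A* (7.47-fold, 6.03-fold and 11.2-fold). The cells were split on *IL1F10*, so these values describe the split and carry no test, and the genes named for it were chosen after their values were seen.

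The interleukin-1 family ligands as a group showed no shared course. Of 11 listed ligands 7 have a row, and 3 reached 10 CPM in a library. *IL1A*, an alarm cytokine of keratinocytes, was at 17.2, 7.57 and 4.43 CPM, past 2-fold lower in catagen and in telogen than in anagen. Among sums of at least 50 cells *IL1A* was highest in suprabasal epidermis-like cluster 9 of anagen, at 86.3 CPM. It was also among the 10 leading genes of immune-like cluster 23, which had 18, 16 and 49 cells and is outside that ranking. *IL18* was at 30.1, 38.3 and 72.8 CPM, past 2-fold higher in telogen than in anagen, and highest in the granular layer-like cluster 15 of telogen at 123 CPM. *IL1B* had 0, 21 and 21 UMIs and *IL1RN*, the receptor antagonist gene beside *IL1F10*, had 37, 38 and 71.

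Among the listed signalling and induced genes, the counts were led by the S100 genes. Of the 18 listed genes of interleukin-1 signalling and processing 13 have a row, and 7 were counted in catagen and anagen: 1, the inflammasome adaptor *PYCARD* (56.5 and 25.8 CPM), was past 2-fold lower in catagen. *NFKBIZ*, a nuclear regulator that interleukin-1 induces, was at 105, 57.3 and 57.0 CPM. Of 17 listed keratinocyte genes known to be induced by interleukin-1 or interleukin-20 cytokines 8 have a row and 6 were counted, of which 5 were past 2-fold lower in catagen and 0 higher, beside 3.47% lower and 4.41% higher among all 6054 genes: *S100A7* (4194, 191 and 2859 CPM), *S100A8* (111, 16.8 and 94.5 CPM), *S100A9* (53.0, 11.9 and 30.5 CPM), *S100A12* (248, 33.3 and 208 CPM) and the chemokine *CCL20* (439, 218 and 121 CPM). The 4 S100 genes were past 2-fold higher again in telogen than in catagen, beside 4.1% of 5971 genes. All 4 were highest in suprabasal epidermis-like cluster 9 of telogen, and a link to *IL20RA* was not tested. This list was chosen with earlier results of these data known, so its counts are descriptions and no test. *LCN2*, an antimicrobial gene of the same list, stayed under 10 CPM over all cells and so was not counted. It went the other way from the S100 genes, at 1.78, 9.31 and 2.93 CPM (5.25-fold higher in catagen than in anagen). With no CPM minimum 2 of the 8 genes were higher in catagen than in anagen and 5 lower, beside 4138 higher and 1986 lower of all 18916 genes. Over all 9 lists, 1 of 27 genes counted was past 2-fold higher in catagen than in anagen, *IL20RA*, and 7 were lower, beside 4.41% higher and 3.47% lower among all genes, so the count of higher genes is near the background. Among other skin interleukins and their receptors, *IL4R* (39.4, 28.1 and 27.4 CPM) and *IFNGR1* (48.6, 40.0 and 37.0 CPM) were not past 2-fold. *IL6* had 66, 28 and 30 UMIs over all cells. Its highest level, 171 CPM, was in the 50 catagen cells of cluster 20, so that peak rests on few UMIs.

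**Figure D5:**
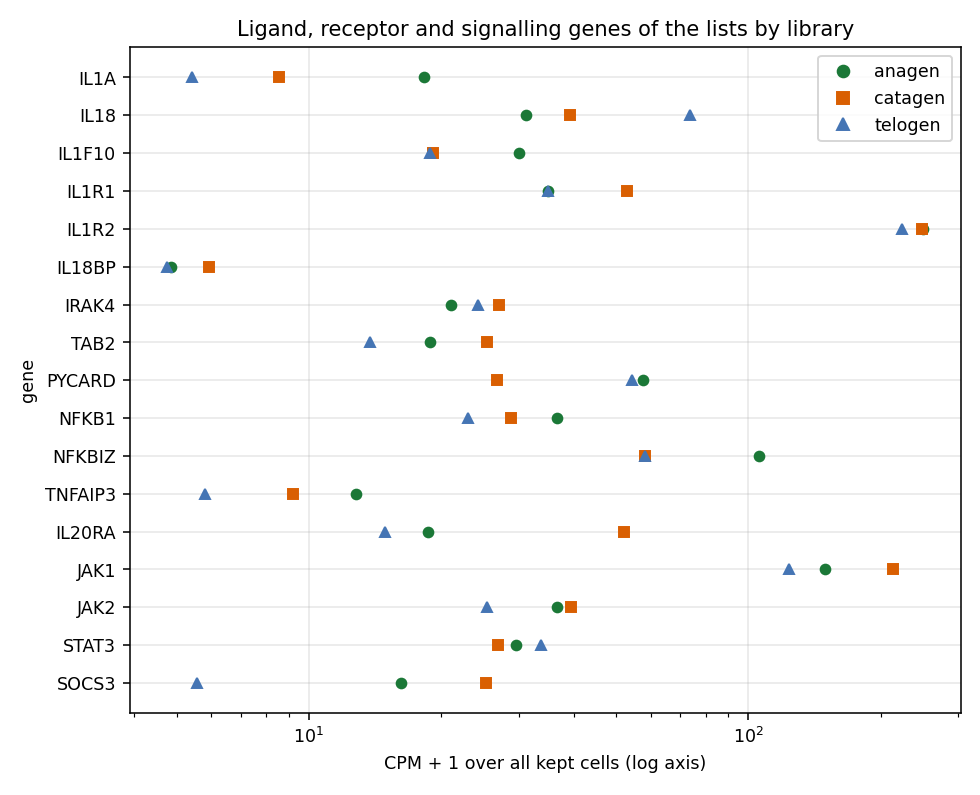
Level of the ligand, receptor and signalling genes of 6 lists in each library, as CPM + 1 over all kept cells on a log axis; each point is 1 library. Genes with at least 20 CPM in a library or 50 CPM in a cluster are shown, other than 1 that is not reported here. The catagen point of *IL20RA* (51.1 CPM) is set off from its anagen and telogen points, and the 3 points of *IL1R2* lie within 223 to 249 CPM.

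Over the 61 sums of a cluster and a library, the genes whose log2(CPM + 1) was most like each of the 3 were sought among the 3776 symbol-bearing genes that reached 50 CPM in any of the sums. For *IL1R2* they were *SCUBE2* (Pearson r = 0.84), *CYP27C1* (0.80), *SLC35F3* (0.77), *TPST1* (0.75) and *INPP1* (0.74). *SCUBE2* was at 269, 239 and 257 CPM in cluster 7. For *IL20RA* they were *SYDE2* (0.77), *CA12* (0.74), *TLE5* (0.71), *PIK3C2G* (0.71) and *TATDN1* (0.68). None of these had the catagen contrast of *IL20RA* in cluster 7: *SYDE2* was at 11.4, 18.2 and 11.7 CPM there, and *TLE5* at 138, 237 and 113 CPM.

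For *IL1F10* the most alike were *LY6G6D* (0.88), *DSG4* (0.87), a desmosomal cadherin of the hair shaft, *GPRC5D* (0.86), *CYB5R2* (0.86) and *KRT36* (0.86). *LY6G6D* was at 188, 467 and 227 CPM in cluster 11 and at most 2.3 CPM in cluster 7. *GPRC5D*, *CYB5R2* and *KRT36* were at 55.4, 50.1 and 81.8 CPM in telogen cluster 11 and at most 0.7 CPM in cluster 7. Such an r can be set by the cluster 11 sums against sums near the floor, so it does not show likeness within the other clusters. By Spearman correlation *DSG4* alone of these genes stayed among the 5 most alike, at 0.60. The sums share libraries, depth and clusters, so these correlations are descriptions and carry no p-value.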

How the data were processed

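The authors deposited 1 filtered matrix of whole-number UMI counts per library, made with Cell Ranger (2.1.1 by the submitters' processing notes, but 4.0.0, 3.1.0 and 6.0.2 by the file headers); the genome build is not given in the sources used here. Cells under 200 detected genes were removed (13 of anagen, 62 of catagen, 71 of telogen). The counts were summed per library or per cluster and library and divided by the summed UMIs (CPM). Exact Poisson, Clopper-Pearson and conditional binomial intervals at 95% were computed with scipy 1.17.1 and cover counting error only. No test was made, as each stage has 1 library.

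Libraries were integrated with Seurat 5.3.0 anchors in R 4.3.3 (2000 variable genes, 30 components, 20 neighbours, resolution 0.8), leaving the 3 genes and the list genes out of the variable genes. A cluster was named when at least 3 markers of a class were at least 1.5-fold raised, with 10 CPM added, and at least 1 was among its 10 leading genes, and left unnamed when 2 classes met this or its first gene marked another class; this rule was set after the clusters had been seen. Scrublet (scanpy 1.11.5) called 0, 1 and 0 doublets, too few to filter on, and doublets were left in. Of 97 list genes 71 have a row, as have 85 of 108 markers. Besides the 3 genes, list genes with at least 20 CPM in a library or 50 CPM in a cluster were named, as were the 5 genes most like each, markers and leading genes. The 3 genes and all lists were chosen with earlier results of these data known. Interval and count code was tested on simulated data. Alternatives covered cell filters, scaling, doublet scores, thinning, clustering, the CPM minimum and the likeness measure. Some genes of the lists and leading genes are not reported here.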

Additional observations from a re-analysis of the deposited data

Results flagged for a closer look

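For *IL1R2*, the highest and the lowest ratio over clusters with at least 20 UMIs in both libraries, a limit chosen after the values were seen, lay past 2-fold in opposite directions in 2 pairs of libraries. The differences between clusters were not tested, and each rests on 1 library per stage. In sebaceous-like cluster 19 the catagen over anagen log2 ratio was 1.79, and in unnamed cluster 18, led by the companion layer keratin gene *KRT75*, it was -2.58. In unnamed cluster 20 the telogen over anagen log2 ratio was 1.72, from 53 and 28 UMIs, and in hair cortex and matrix-like cluster 11 it was -2.00, from 45 and 346 UMIs. The 53 telogen UMIs of cluster 20 came from 7 of 52 cells, and the 28 anagen UMIs from 20 of 104 cells. The share of cells with a UMI was thus lower in telogen (13.5% against 19.2%), and the ratio of cluster 20 rests on few cells. Other clusters had ratios as far below 0: cluster 11 was at -2.58 for catagen over anagen from 19 and 346 UMIs, inner root sheath-like cluster 13 at -2.26 from 23 and 254 UMIs, and unnamed cluster 14 at -2.74 for telogen over anagen from 7 and 139 UMIs.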

How the results depend on the processing

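No paired analysis was possible because each stage has 1 library and the labels hold no replicate to pair. The log2 ratios are given as catagen over anagen, telogen over catagen and telogen over anagen. Keeping all deposited cells, requiring the smallest anagen total of 2404 UMIs, leaving out the highest Scrublet scores and leaving out cluster 0 (chosen after seeing the data) moved none of the 9 stage ratios beyond its interval. With median-of-ratios scaling they were -0.26, 0.35 and 0.089 for *IL1R2*, the last 2 with the opposite sign, 1.28, -1.38 and -0.10 for *IL20RA*, and -0.93, 0.48 and -0.45 for *IL1F10*. With cells of at least 1000 genes *IL1R2* was at -0.18, -0.029 and -0.21, and *IL1F10* at -0.45 and -0.22 for the first 2. With the mean of each cell's CPM *IL1R2* was at -0.039, -0.037 and -0.076, and *IL1F10* at -0.27 for telogen over catagen and -1.02 for telogen over anagen. The causes were not tested.

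The highest cluster was basal epidermis-like for *IL1R2* and hair cortex and matrix-like for *IL1F10* in 15 of 15 cases of a library and a clustering, and basal epidermis-like in 0 of 15 for *IL20RA*, where it changed with the clustering. With all variable genes kept the *IL1R2* level of basal epidermis-like cells was 1872 CPM in anagen and 2022 CPM in telogen, and with each library clustered alone it was 1237 CPM in anagen and 783 CPM in catagen, with *IL20RA* at 120.0 CPM in catagen. *IL1F10* in cortex-like cells was at 264, 233 and 487 CPM at resolution 0.4, and in anagen at 493 CPM at resolution 1.2 and 491 CPM with all variable genes kept.

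Thinned to 3000 UMIs, the shares of anagen, catagen and telogen cells with a UMI were 29.1%, 30.2% and 25.2% for *IL1R2*, 5.17%, 14.2% and 3.77% for *IL20RA* and 2.69%, 1.12% and 0.821% for *IL1F10*. Without thinning they were 37.1%, 30.2% and 29.2%, 9.82%, 15.5% and 7.87%, and 4.48%, 1.33% and 1.37%. With no CPM minimum 22 list genes were past 2-fold in each pair, and such calls were common among all genes too. Higher and lower genes were then 4138 and 1986 of 18916 for catagen over anagen and 1776 and 6304 of 18874 for telogen over catagen. For telogen over anagen they were 1807 and 4063 of 18832. At 50 CPM 2 list genes were past 2-fold for telogen over anagen, beside 82 higher and 171 lower of all 2077. Of the 5 most alike genes, Spearman correlation shared 3 for *IL1R2*, 3 for *IL20RA* and 1 for *IL1F10*, and a pseudocount of 10 CPM shared 2 for *IL20RA*.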
